A study of Mus musculus with 6 samples.

Results

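The genes described are 10 matrix metalloproteinase (MMP) and ADAM genes, Mmp9, Mmp12, Mmp14, Mmp25, Adamdec1, Adam19, Adam11, Adam8, Adam10 and Adam17, of 27179 genes in the count table. They were named by symbol and found by their mouse Entrez gene IDs. They were chosen by their read counts in CpG-pretreated against untreated libraries as well as by family, since that difference was already known for some of them, so every value of these genes in that contrast, counts of calls and 95% intervals included, is given as a description, and no p-value is given for them. All 10 passed the filter on low counts, as did 11602 genes in all.

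RNA was sequenced from CD8- dendritic cells sorted from the spleen of C57BL/6 mice. The 3 CpG-pretreated libraries and the 3 libraries from untreated mice carry the same numbers, 2, 3 and 4. The design text calls them biological replicates. CpG DNA binds an endosomal Toll-like receptor, and the series title calls the cells paralysed after a systemic inflammatory syndrome. Not given in the sources used here were the CpG sequence, dose, route and interval, the animals' age, sorting markers other than CD8, and whether a library is 1 mouse or a pool. Cells were lysed after sorting without culture.

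MMPs and ADAMs are zinc-dependent proteases made as inactive precursors. MMPs are mostly secreted and cut matrix proteins such as collagen and elastin, and the membrane-bound types act at the cell surface. ADAMs are mostly membrane proteins, and the catalytically active ones release, or shed, the outer parts of other membrane proteins such as cytokines, adhesion molecules and Notch receptors. Several ADAMs have lost the catalytic residues and act in cell contact instead. In dendritic cells and macrophages these enzymes are known for matrix passage during migration and for release of tumour necrosis factor.

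Total counts were 7855500 to 8228140 per library, so that 1 count was worth 0.123 to 0.127 CPM (counts scaled to a common library total). The 8 markers of the dendritic cell core list were detected in every library, with the integrin gene Itgax at 1812 to 2080 CPM in CpG-pretreated and 2075 to 2275 CPM in untreated libraries. Cd8a, against which the cells were sorted, stood at 1.64 to 4.69 CPM and 1.23 to 4.13 CPM in the same groups. Within groups, pairs of libraries differed by more than sampling noise (chi-square per degree of freedom 3.3 to 20.8), so each library was counted as a replicate. P-values below therefore measure the spread between these libraries only.

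Promoter sequences are shown because the 2 lower genes for which a window was at hand, Mmp12 and Adam19, both hold the letters of an AP-1 site there. AP-1, a dimer of Fos and Jun proteins, is a textbook regulator of MMP genes. For 7 of the 10 genes RefSeq gave a promoter window on GRCm38.p6, and Mmp9, Adamdec1 and Adam11 had none. The 250 bases before the transcript start were searched on both strands for TGANTCA (AP-1), AGGAAG (ETS) and GAAA, any 2 bases, GAAA (interferon-stimulated response element). For each gene the window nearest to the start of its first GENCODE M21 transcript was taken. Capitals mark the AP-1 match, and none of the 3 windows overlaps an annotated exon.
Mmp12, chr9:7347124-7347373, plus strand: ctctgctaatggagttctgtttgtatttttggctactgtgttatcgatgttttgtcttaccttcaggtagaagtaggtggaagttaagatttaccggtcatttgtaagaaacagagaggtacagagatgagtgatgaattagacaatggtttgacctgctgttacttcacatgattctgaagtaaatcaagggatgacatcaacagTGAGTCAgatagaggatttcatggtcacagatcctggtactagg
Adam19, chr11:46055734-46055983, plus strand: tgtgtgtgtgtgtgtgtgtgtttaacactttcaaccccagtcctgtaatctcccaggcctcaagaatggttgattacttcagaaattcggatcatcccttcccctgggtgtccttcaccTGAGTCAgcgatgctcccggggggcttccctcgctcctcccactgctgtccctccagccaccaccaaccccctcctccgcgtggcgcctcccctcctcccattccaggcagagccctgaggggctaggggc
Adam10, chr9:70678732-70678981, plus strand: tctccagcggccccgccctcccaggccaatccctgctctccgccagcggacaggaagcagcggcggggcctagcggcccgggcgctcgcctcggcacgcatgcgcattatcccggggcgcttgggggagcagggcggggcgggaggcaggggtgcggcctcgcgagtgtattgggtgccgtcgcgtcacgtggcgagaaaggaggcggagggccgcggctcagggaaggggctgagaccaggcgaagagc

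The match reads TGAGTCA in both genes and begins 44 bases before the start in Mmp12 and 131 bases before it in Adam19. The windows of Adam8, Adam10, Adam17, Mmp14 and Mmp25 hold no AP-1 letters, nor do the second window of Mmp12 and the other 2 windows of Adam19. Of all 32851 promoter windows of this length, 6.75% hold TGANTCA, 29.5% hold AGGAAG and 2.98% hold the interferon element. Counted by gene, 7.82% of 27025 genes hold TGANTCA in at least 1 window. AGGAAG was found in the nearest windows of Adam10, Adam17, Mmp14 and Mmp25, and the interferon element in no window of these genes. The nearest windows also differ in base composition, with 2 CG dinucleotides in Mmp12, 6 in Adam8, 7 in Adam19, 10 in Mmp14, 17 in Mmp25, 23 in Adam17 and 29 in Adam10. The median over the windows of all genes was 6. A match describes letters only, and binding was not measured. The sequences were picked for display by these matches, and a part of AP-1 in the lower levels was not tested.

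Mmp9, Mmp12, Adamdec1 and Adam19 were lower in all 3 CpG-pretreated libraries than in any untreated one, and Adam11 was higher in all 3. The groups overlapped for Mmp14, Mmp25, Adam8, Adam10 and Adam17. Non-overlap with the CpG-pretreated group lower held for 9.47% of all genes tested, and with that group higher for 9.2%. At an adjusted p under 0.05 by edgeR's quasi-likelihood test over all genes, 4 of the 10 were called, all of them lower, where 0.974% of all genes were called in either direction, 0.5% lower and 0.474% higher. The genes were chosen with these differences known, so nothing is read from either count. The median log2 fold change of the 10 was -0.25, against -0.01 over all genes tested.

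**Figure D1:**
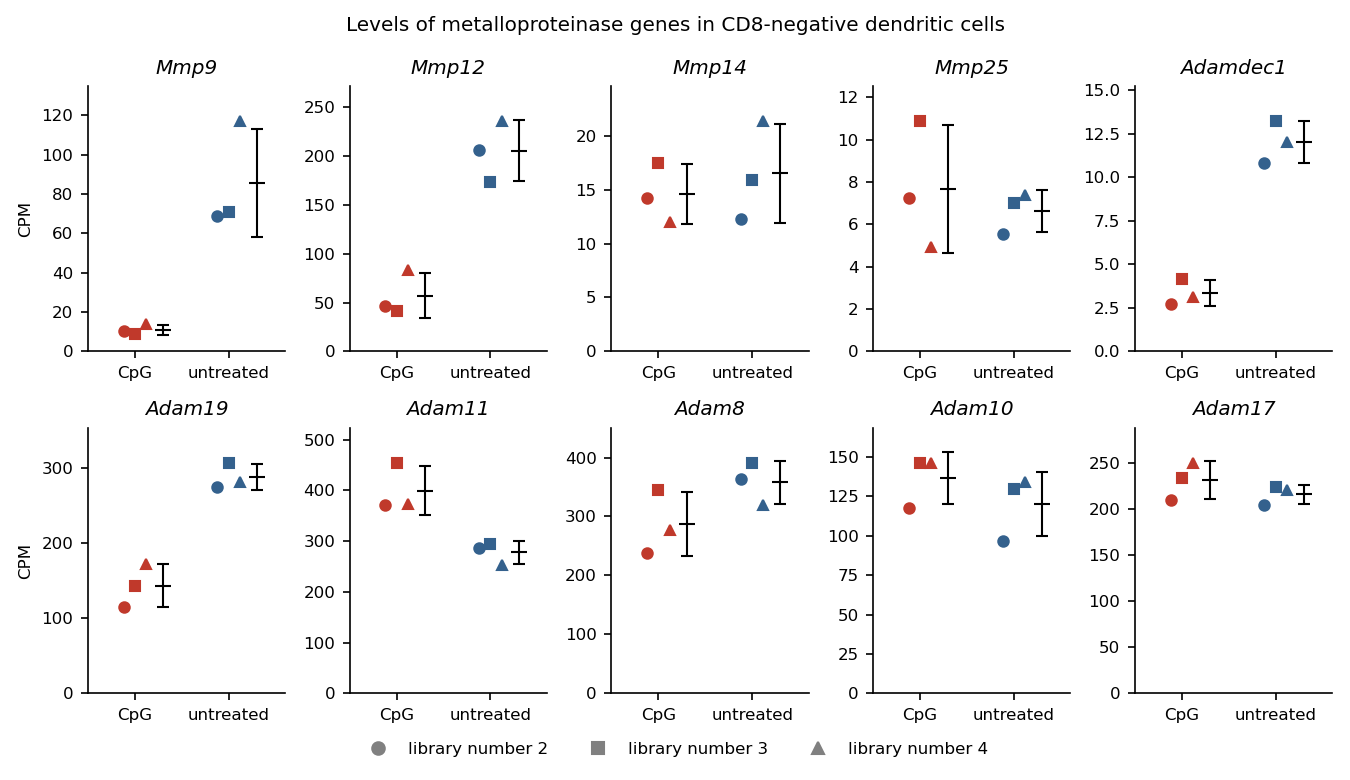
Level in CPM (linear axis from 0) of each of the 10 genes in every library, CpG-pretreated in red and untreated in blue, with the mean and SD of 3 libraries in black. Mmp9, Mmp12, Adamdec1 and Adam19 are lower and Adam11 is higher without overlap, and the other 5 genes overlap between groups.

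Among the secreted enzymes, Mmp9 encodes gelatinase B, which cuts denatured collagen and the collagen of basement membranes (Entrez 17395, chromosome 2, 164940326 to 164955850). It stood at 10.4, 8.88 and 13.9 CPM in libraries 2, 3 and 4 after CpG pretreatment, against 68.8, 70.6 and 117 CPM in untreated libraries 2, 3 and 4. The highest CpG-pretreated library was well below the lowest untreated one, and within each group library 4 was the highest. The log2 fold change was -2.95 (SE 0.26), or 7.73-fold lower, and the difference within the numbered pairs was -2.72, -2.99 and -3.08 on the log2 scale.

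Mmp12 encodes macrophage elastase (Entrez 17381, chromosome 9, 7344397 to 7360461). It stood at 46.1, 41.7 and 83.4 CPM in libraries 2, 3 and 4 after CpG pretreatment, against 207, 174 and 236 CPM in the untreated libraries of those numbers. Library 4 was again the highest of each group, and CpG-pretreated library 4 was well above the other libraries of its group. The log2 fold change was -1.85 (SE 0.26), or 3.6-fold lower, with pair differences of -2.16, -2.06 and -1.5.

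Adamdec1 encodes decysin-1, a secreted and shortened ADAM relative known from human gut macrophages and dendritic cells (Entrez 58860, chromosome 14, 68563387 to 68582072). It was a low gene, with 22, 33 and 25 counts in CpG-pretreated and 88, 106 and 98 counts in untreated libraries, or 2.7, 4.18 and 3.15 CPM against 10.8, 13.3 and 12 CPM. The spread within each group was small next to the gap between them. The log2 fold change was -1.84 (SE 0.21), almost the same as that of Mmp12, with pair differences of -2, -1.66 and -1.94.

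The membrane-anchored MMPs showed no such gap. Mmp14 encodes a surface collagenase that also activates other MMPs (Entrez 17387, chromosome 14, 54431598 to 54442456). It stood at 14.2, 17.5 and 12 CPM in CpG-pretreated and 12.3, 15.9 and 21.4 CPM in untreated libraries 2, 3 and 4. The groups overlapped, and its pair differences were 0.21, 0.14 and -0.84. Mmp25 encodes a lipid-anchored MMP known from human neutrophils (Entrez 240047, chromosome 17, 23628315 to 23645269). It stood at 7.24, 10.9 and 4.91 CPM in CpG-pretreated and 5.53, 7 and 7.38 CPM in untreated libraries. Its pair differences were 0.39, 0.64 and -0.59, so in both genes pair 4 ran against pairs 2 and 3. The log2 fold change of Mmp14 was -0.18 (95% interval -0.7 to 0.34), and 0.05 without untreated library 4. That of Mmp25 was 0.21 (95% interval -0.45 to 0.87), and -0.12 without CpG-pretreated library 3. The annotated span of Mmp25 overlaps the gene Bicdl2, and since counting by strand was not stated, part of its counts may belong to that gene.

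Among the membrane ADAMs, Adam19 encodes meltrin beta, an active protease known from heart development in the mouse (Entrez 11492, chromosome 11, 46054502 to 46147347). It stood at 115, 143 and 172 CPM in libraries 2, 3 and 4 after CpG pretreatment, against 275, 307 and 281 CPM in untreated ones. The untreated libraries lay close together, and CpG-pretreated ones were more spread. The log2 fold change was -1.01 (SE 0.15), or 2.01-fold lower, with pair differences of -1.26, -1.1 and -0.71, the smallest again in pair 4.

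Adam8 encodes CD156a, an active ADAM of leukocytes (Entrez 11501, chromosome 7, 139978932 to 139995207). It stood at 239, 345 and 278 CPM in CpG-pretreated and 363, 391 and 319 CPM in untreated libraries. Each pair was lower in the CpG-pretreated library, by -0.6, -0.18 and -0.2 on the log2 scale, but CpG-pretreated library 3 was above untreated library 4. The log2 fold change was -0.32, with a 95% interval of -0.65 to 0.02.

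Adam11 encodes an ADAM without the catalytic residues, known from neurons (Entrez 11488, chromosome 11, 102761413 to 102780263). It stood at 370, 455 and 373 CPM in libraries 2, 3 and 4 after CpG pretreatment, against 287, 295 and 252 CPM in untreated ones. It was the 1 gene of the 10 that was higher without overlap, with a log2 fold change of 0.52 (SE 0.12) and pair differences of 0.37, 0.62 and 0.57. With the library number as a block, 6 of the 10 genes were called, Adam11 higher and Adam8 lower beside the 4 named above, where 8.52% of all genes were called, 3.78% lower and 4.73% higher. The 2 added calls are given as a description too.

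The general sheddases had values close together in both groups. Adam10, the enzyme that makes the first ligand-induced cut in Notch receptors (Entrez 11487, chromosome 9, 70678944 to 70780229), stood at 117, 146 and 146 CPM in CpG-pretreated and 97, 130 and 134 CPM in untreated libraries. Adam17, the enzyme that releases tumour necrosis factor (Entrez 11491, chromosome 12, 21323509 to 21373632), stood at 210, 233 and 250 CPM in CpG-pretreated and 204, 223 and 220 CPM in untreated libraries. Each pair was slightly higher in the CpG-pretreated library for both genes, by 0.27, 0.17 and 0.12 for Adam10 and 0.04, 0.06 and 0.18 for Adam17 on the log2 scale. The 95% intervals of the log2 fold changes were -0.16 to 0.53 for Adam10 and -0.13 to 0.33 for Adam17. The annotated span of Adam17 overlaps the gene Iah1, so its counts carry the same limit as those of Mmp25.

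**Figure D2:**
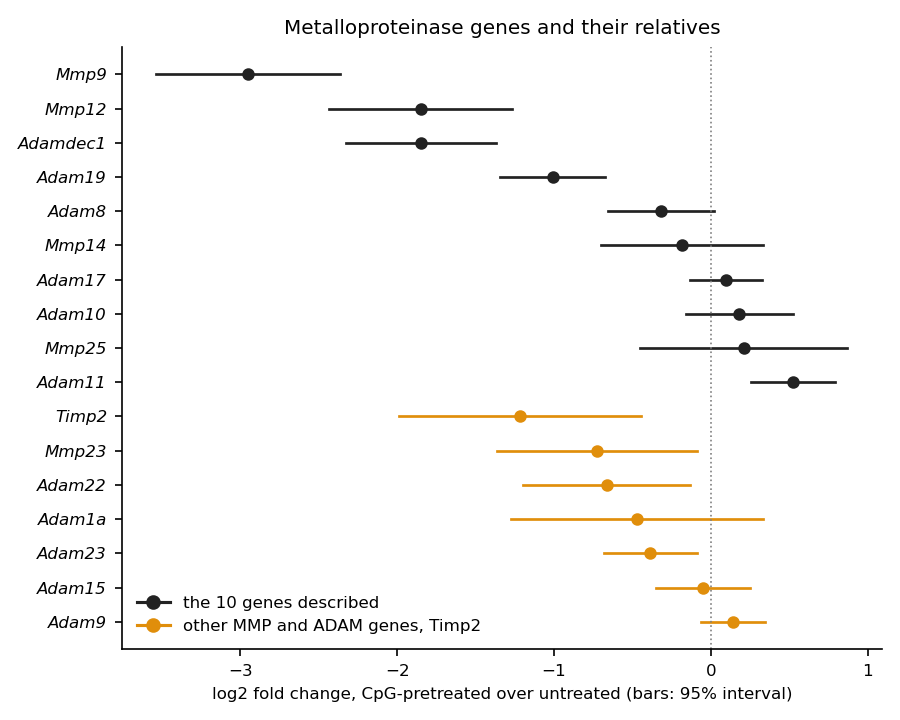
Log2 fold change of CpG-pretreated over untreated libraries (horizontal axis) with its 95% interval, for the 10 genes in black and, in orange, for the other MMP and ADAM genes that passed the filter and the inhibitor gene Timp2. Mmp9 lies at -2.95, Mmp12 and Adamdec1 near -1.85, Adam19 at -1.01 and Adam11 at 0.52; the black intervals describe genes chosen for this contrast.

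Levels between genes were compared per length, as CPM per kilobase of the deposited gene length. In CpG-pretreated cells the order was Adam8 (94.7 ± 17.7), Adam11 (78.3 ± 9.36), Adam17 (52.4 ± 4.63), Adam10 (29.8 ± 3.64), Adam19 (22.4 ± 4.44), Mmp12 (15.8 ± 6.34), Mmp14 (5.61 ± 1.07), Mmp9 (3.52 ± 0.81), Mmp25 (2.28 ± 0.9) and Adamdec1 (1.39 ± 0.32) (CPM per kilobase, SD, n = 3). The libraries of neighbours in this order overlapped for Adam8 and Adam11, for Adam10, Adam19 and Mmp12, and for Mmp9, Mmp25 and Adamdec1. In untreated cells the order was Adam8 (118 ± 12), Mmp12 (57 ± 8.65), Adam11 (54.5 ± 4.43), Adam17 (49 ± 2.32), Adam19 (45 ± 2.66), Mmp9 (27.3 ± 8.75), Adam10 (26.2 ± 4.42), Mmp14 (6.36 ± 1.76), Adamdec1 (4.99 ± 0.51) and Mmp25 (1.97 ± 0.29) (CPM per kilobase, SD, n = 3). Here Mmp12, Adam11, Adam17 and Adam19 overlapped with their neighbours, as did Mmp9 with Adam10 and Mmp14 with Adamdec1. Mmp12 therefore stood second of the 10 in untreated cells and sixth in CpG-pretreated ones, and Adam8 stood first in both.

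Over all MMP and ADAM genes in the table, summed levels were 359, 443 and 428 CPM per kilobase in libraries 2, 3 and 4 after CpG pretreatment, against 494, 532 and 533 in untreated ones. The 10 genes made up 73.6 to 75.8% of that sum in CpG-pretreated and 74.4 to 76.2% in untreated libraries. The 4 MMPs among them made up 6.61, 5.5 and 7.85% in libraries 2, 3 and 4 after CpG pretreatment, against 17.3, 14.8 and 21.3% in untreated ones, without overlap. Adam11 alone took 19.1% of the sum on average in CpG-pretreated and 10.5% in untreated libraries, and Adam8 took 23% and 22.7%. Within a library, the level of Adam11 over that of Adam8 was 0.92, 0.78 and 0.8 in CpG-pretreated and 0.47, 0.45 and 0.47 in untreated libraries. The level of Adam10 over that of Adam17 was 0.54, 0.6 and 0.56 in CpG-pretreated and 0.46, 0.56 and 0.59 in untreated libraries, with overlap.

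**Figure D3:**
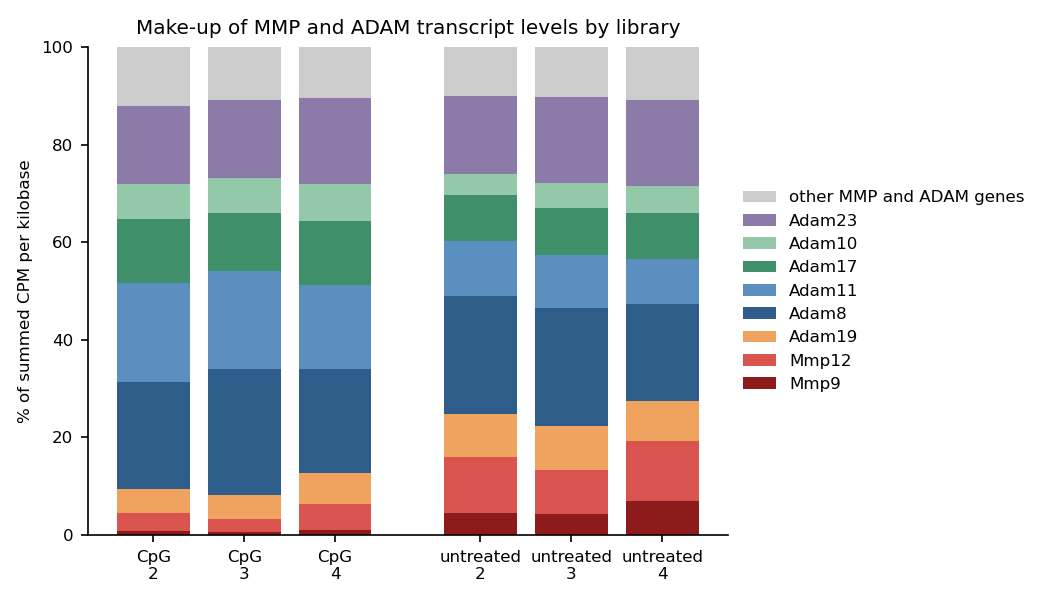
Share (%) of each gene in the summed CPM per kilobase of all MMP and ADAM genes, 1 bar per library, the CpG-pretreated libraries on the left and the untreated ones on the right. Mmp9, Mmp12 and Adam19 at the base of the bars take smaller shares in CpG-pretreated libraries, and Adam11 takes a larger one.

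The genes whose mean-centred log2 CPM over the 6 libraries came closest to a member were looked up among 8897 named protein-coding genes averaging at least 3 log2 CPM, for the 3 members with the largest fold changes. For Mmp9 they were Serpinb2, Mmp12, Lyz1, Hpgd and Spats2, with root mean square differences of 0.26, 0.54, 0.57, 0.57 and 0.6 on the log2 scale. For Mmp12 they were Hpgd, Cd81, Kcnj16, Scn3a and Meis3, with 0.07, 0.18, 0.22, 0.25 and 0.27. For Adamdec1 they were Spats2, C1qc, Itga9, Meis3 and C1qa, with 0.17, 0.23, 0.25, 0.25 and 0.26. Hpgd encodes an enzyme that inactivates prostaglandins, Serpinb2 an inhibitor of plasminogen activators, and C1qa and C1qc chains of complement C1q. The CPM of Mmp12 over that of Hpgd was 4.18, 4.51 and 4.06 in CpG-pretreated and 3.92, 4.5 and 4.32 in untreated libraries, and this near-constant ratio follows from the way Hpgd was picked, on the same 6 libraries. The CPM of Mmp9 over that of Serpinb2 was 5.31, 8.75 and 4.23 in CpG-pretreated and 5.05, 4.75 and 5.55 in untreated libraries.

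**Figure D4:**
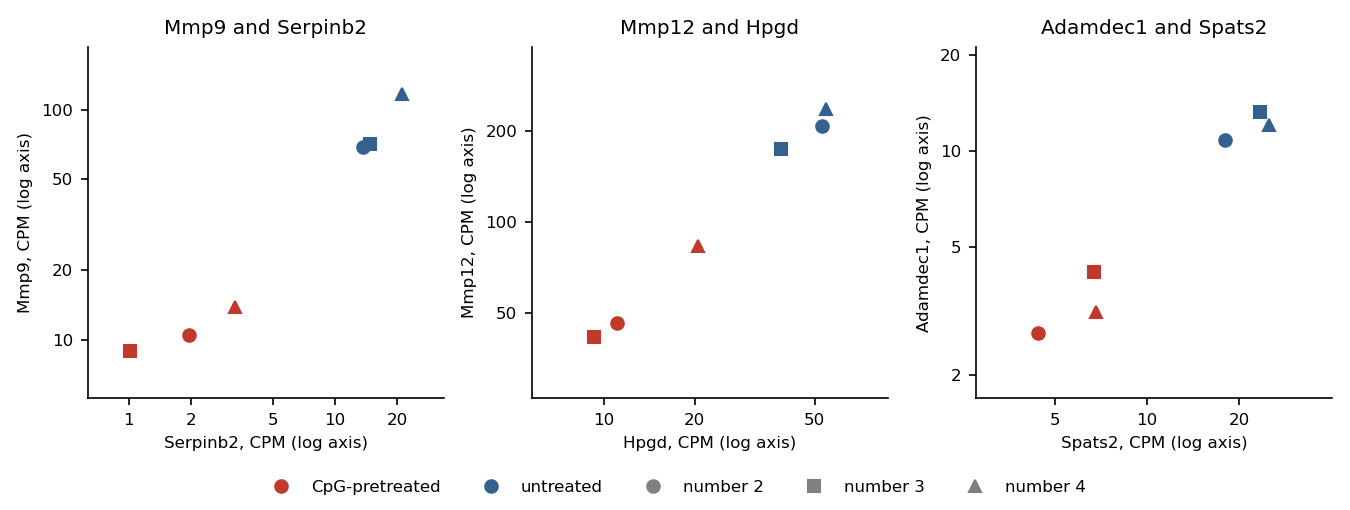
CPM of Mmp9, Mmp12 and Adamdec1 (vertical, log axis) against CPM of the gene nearest to each over the 6 libraries (horizontal, log axis), 1 point per library. In each panel the CpG-pretreated libraries (red) lie below and to the left of the untreated ones (blue), as must follow from picking the nearest gene on these same libraries, and Mmp12 over Hpgd stays between 3.92 and 4.51.

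Genes of macrophages moved with the lower members. Of 14 tested genes of the red pulp macrophage list, 5 fell by edgeR (C1qa, C1qc, Hpgd, Trf and Vcam1), none rose, all 14 had log2 fold changes below 0 and the list median was -1.08, against -0.01 over all genes. Of all genes tested, 0.5% were called lower by edgeR. All 15 listed genes were detected, and their summed level was 404, 468 and 553 CPM in libraries 2, 3 and 4 after CpG pretreatment, against 645, 797 and 816 CPM in untreated ones. Of that sum, Adgre1, the F4/80 gene, held 263 to 357 CPM in CpG-pretreated and 328 to 369 CPM in untreated libraries. The defining factor gene Spic was at 8.71 to 12.4 CPM in CpG-pretreated and 15.4 to 18.6 CPM in untreated libraries. Mmp12 over the summed list was 0.11, 0.09 and 0.15 in CpG-pretreated and 0.32, 0.22 and 0.29 in untreated libraries. Mmp9 over the list was 0.03, 0.02 and 0.03 in CpG-pretreated and 0.11, 0.09 and 0.14 in untreated libraries. Adgre1 made up 61.1 to 65.2% of the sum in CpG-pretreated and 44 to 50.9% in untreated libraries. With Adgre1 left out of the sum, a choice made after seeing the data, the Mmp12 ratio was 0.33, 0.23 and 0.42 in CpG-pretreated and 0.65, 0.41 and 0.52 in untreated libraries, and the groups overlapped. The Mmp9 ratio was then 0.07, 0.05 and 0.07 in CpG-pretreated and 0.22, 0.16 and 0.26 in untreated libraries, without overlap. DESeq2 called 9 of the 14 genes lower, limma-voom 3 and the block 11, and edgeR called 0 without CpG-pretreated library 2 or 3 or untreated library 3 or 4. In sorted cells counted in bulk, fewer cells of a type and less RNA per cell cannot be told apart, and the part of macrophage transcripts in the lower MMP levels was not tested.

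Markers of other cell types, named here after their values were seen, also differed. Of 4 marginal zone and metallophilic macrophage genes, Cd209b fell (log2 fold change -3.17, edgeR adjusted p = 0.0297). Of all genes tested, 9.47% were lower without overlap. Of 8 markers of type 2 conventional dendritic cells, 7 had log2 fold changes below 0 (median -0.29) and 5 were lower without overlap. Among them Esam fell (log2 fold change -0.75, edgeR adjusted p = 0.0444), Cd4 had -0.51, Cd209a -0.68 and Sirpa -0.07, and the block called 3 lower and limma-voom 0. Of 7 markers of type 1 conventional dendritic cells 0 were called by edgeR (3 at an unadjusted p under 0.05, 2 by DESeq2 and 0 by limma-voom). Their median was 0.53, with 5 of the 7 above 0 and 2 below. The block called 3 higher, Xcr1 at 1.27, Irf8 at 0.79 and Tlr3 at 0.8. Cd8a had 0.53, Clec9a 0.01, Batf3 -0.27 and Cadm1 -0.4. Of 8 monocyte markers 0 were called by edgeR (4 at an unadjusted p under 0.05, 1 by DESeq2 and 0 by limma-voom). The block called Lyz2, Treml4 and Nr4a1 lower. The monocyte list median was 0.03, with 4 log2 fold changes above 0 and 4 below, from Ly6c2 at 1.57 to Lyz2 at -0.69. The endothelial gene Kdr rose (log2 fold change 1.55, edgeR adjusted p = 0.0438), with 0.072 under the block and 0.0732 by limma-voom as adjusted p. The median of the 3 tested endothelial and stromal genes was 0.02, with Pecam1 at 0.02 and Cdh5 at -0.33. The edgeR calls of Cd209b, Esam and Kdr were lost without CpG-pretreated library 2 or 3 or untreated library 3 or 4, that of Kdr also without untreated library 2, and that of Esam without any 1 of the 6 libraries. The part of these cell types in the members' values was not tested.

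Human neutrophils store MMP9 and MMP25 protein in granules. Of 7 tested genes of the neutrophil list 0 were called by edgeR (2 at an unadjusted p under 0.05, 0 by DESeq2, 0 by limma-voom and 1, higher, with the block). Their median log2 fold change was 0.63, with 6 above 0 and 1, Csf3r, below. All 12 listed genes had at least 1 count. Their summed level was 124, 80.9 and 75.1 CPM in libraries 2, 3 and 4 after CpG pretreatment, against 102, 54.5 and 32.5 CPM in untreated ones. Untreated library 4, which had the highest Mmp9 level at 117 CPM, had the lowest neutrophil sum. Erythroid transcripts differed more, with summed levels of 609, 559 and 108 CPM in CpG-pretreated and 8.85, 53.5 and 14.3 CPM in untreated libraries, and 2 of 6 tested genes, Alas2 and Epb42, were called higher by edgeR, 5 by DESeq2, 3 with the block and 0 by limma-voom. Without CpG-pretreated library 4 edgeR called 6, and without any 1 of the other libraries 0. In CpG-pretreated library 4, where the erythroid sum was lowest of its group, Mmp9, Mmp12, Adam19 and Adam17 were highest of their group. Adam10 was all but level between CpG-pretreated libraries 3 and 4 (146.1 and 146.3 CPM), and the other 5 members were not highest in library 4. This comparison rests on 1 library. The part of either cell type in these values was not tested.

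**Figure D5:**
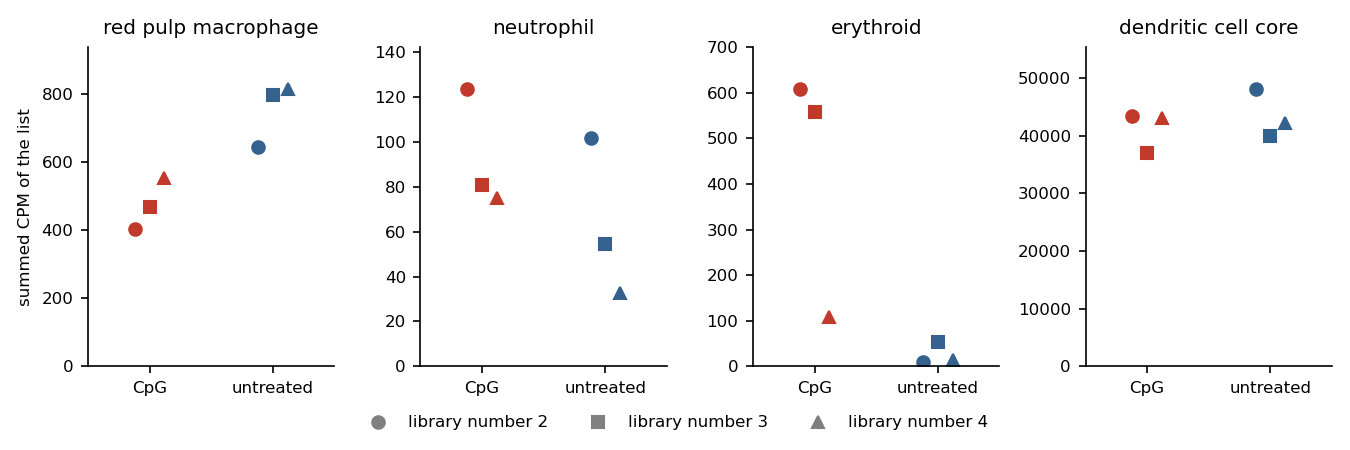
Summed CPM of 4 marker lists in each library (linear axes from 0), CpG-pretreated in red on the left and untreated in blue on the right of each panel. The red pulp macrophage sum is lower and the erythroid sum higher in all 3 CpG-pretreated libraries, and the neutrophil and dendritic cell core sums overlap between groups.

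The relatives, inhibitors, activators, partners and substrates of these enzymes were covered by 10 lists, none of which holds any of the 10 genes. These lists too were chosen with earlier results of these data known, so their calls and p-values are a description. Of the 67 tested genes in these lists, 2 fell by edgeR's quasi-likelihood test (adjusted p under 0.05 over all genes) and 0 rose, with 14 at an unadjusted p under 0.05 in either direction. Of all 11602 genes tested, 0.5% were called lower and 0.474% higher, and 1485 had an unadjusted p under 0.05. The 2 list genes that fell were Vcam1 and Serpinb2, and the median log2 fold change of the 67 was -0.05. With the library number as a block, 10 of the 67 were lower and 2 higher, where 3.78% of all genes were called lower and 4.73% higher. In 8 of the 10 lists 0 of 38 tested genes were called by edgeR without the block, with 5 at an unadjusted p under 0.05. With the block, Adam22, Adam23, Timp2 and Ets1 of these 8 lists were called, all lower.

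Few other MMP genes were expressed. Of 19 other MMP genes, 6 had no count in any library (Mmp1a, Mmp3, Mmp10, Mmp16, Mmp21 and Mmp27), and 12 had counts but did not pass the filter, with at most 13 counts in a library. The remaining one, Mmp23, stood at 4.42, 5.33 and 4.28 CPM in CpG-pretreated and 11.1, 5.88 and 6.27 CPM in untreated libraries (log2 fold change -0.73, edgeR adjusted p = 0.31). Of 28 other ADAM genes, 15 had no count and 5 passed the filter. Adam23, which encodes a catalytically inactive receptor known from neurons, was the most abundant at 395, 490 and 521 CPM in CpG-pretreated and 542, 644 and 648 CPM in untreated libraries (log2 fold change -0.39, SE 0.13, edgeR adjusted p = 0.245, block adjusted p = 0.00405). Its close relative Adam22 had a log2 fold change of -0.66 (edgeR adjusted p = 0.26, block adjusted p = 0.0175), and the sheddase gene Adam9 had 0.14 (edgeR adjusted p = 0.618). Of 24 ADAMTS and ADAMTS-like genes, secreted relatives, 5 were tested and 0 called by edgeR (0 at an unadjusted p under 0.05, 0 by DESeq2 and 0 by limma-voom), with Adamts10 at -0.05, Adamts13 at 0.14 and Adamts6 at -0.45.

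Inhibitors were scarce, and no tested convertase or partner gene was called by edgeR, with intervals of varied width. Of the 6 inhibitor genes only Timp2, a tissue inhibitor of MMPs, passed the filter, at 1.23, 1.52 and 2.14 CPM in CpG-pretreated and 2.58, 5 and 3.81 CPM in untreated libraries (log2 fold change -1.21, edgeR adjusted p = 0.148, block adjusted p = 0.0244). Timp4 and A2m had no count. Some proprotein convertases, Furin among them, remove the inhibitory part of ADAM and membrane MMP precursors. In this list Furin had a log2 fold change of -0.14 (95% interval -0.4 to 0.12), Pcsk7 0.09 and Mbtps1 0.04. None of these 3 tested convertases was called by edgeR, at an unadjusted p under 0.05, by DESeq2 or by limma-voom (0 in each). The 8 tested partners of ADAM10 and ADAM17 ranged from -0.47 to 0.31, with 0 called by edgeR, 0 at an unadjusted p under 0.05, 0 by DESeq2 and 0 by limma-voom. The intervals of scarce partners were wide, as for Rhbdf1 (95% interval -1.52 to 0.59), so a change in them is not excluded. Among the most abundant of them, Tspan14, a tetraspanin that carries ADAM10, had 0.19 (95% interval -0.03 to 0.4), Frmd8, a stabiliser of the iRhom and ADAM17 complex, had 0.04 (-0.17 to 0.25) and the trafficking gene Pacs2 had 0 (-0.31 to 0.31).

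Of 23 tested genes whose proteins are shed by ADAM10 or ADAM17, 1 fell and 0 rose by edgeR. It was Vcam1, an adhesion molecule gene, at 11.9, 16.6 and 19 CPM after CpG pretreatment and 28.6, 53.1 and 46.3 CPM in untreated ones (log2 fold change -1.43, SE 0.25, edgeR adjusted p = 0.0444). Vcam1 is also 1 of 3 genes shared with the red pulp macrophage list. Its call was lost by limma-voom (adjusted p = 0.0732) and in edgeR fits without CpG-pretreated library 2 (adjusted p = 0.165) or 3 (0.159) or untreated library 3 (0.18) or 4 (0.168), and held without CpG-pretreated library 4 (0.0287) and untreated library 2 (0.0201). The block called 5, all lower, which besides Vcam1 were Tnfrsf1b, Axl, Mertk and Havcr2 (named after their values were seen). Of the most abundant substrates, Icosl, a costimulatory ligand gene, had a log2 fold change of -0.05 (95% interval -0.29 to 0.19) and App 0.19 (-0.03 to 0.41). Notch2 had 0.05 with a wide interval (-0.62 to 0.71).

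In the plasminogen system, which activates several MMPs, 1 of 6 tested genes fell and 0 rose by edgeR. Serpinb2 stood at 1.96, 1.01 and 3.27 CPM after CpG pretreatment and 13.6, 14.9 and 21.1 CPM in untreated ones (log2 fold change -2.98, SE 0.35, edgeR adjusted p = 0.0236). Its call held by DESeq2 and limma-voom (adjusted p = 3.16e-12 and 0.0421) and was lost in edgeR fits without CpG-pretreated library 2 (adjusted p = 0.123) or 3 (0.0866) or untreated library 3 (0.0765) or 4 (0.123). Serpinb2 was also the gene nearest to Mmp9 above. Plau, the urokinase gene, had a log2 fold change of -0.07 (95% interval -0.35 to 0.2), Plgrkt, a plasminogen receptor gene, -0.13, and Anxa2, whose protein binds plasminogen and its activator, 0.46 (edgeR adjusted p = 0.169, block adjusted p = 0.00573).

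Matrix substrates were barely expressed, with 3 of 14 genes tested and 0 called by edgeR (0 at an unadjusted p under 0.05, 0 by DESeq2 and 0 by limma-voom among these 3). Fn1, the fibronectin gene, stood at 12, 15.9 and 8.56 CPM in CpG-pretreated and 7.37, 7.63 and 24.8 CPM in untreated libraries. Its log2 fold change was -0.13, and 0.69 without untreated library 4, 0.07 without CpG-pretreated library 4 and 0.07 by limma-voom. Nid1 had -0.32 and Lamc1 -0.26. Among 12 tested genes of AP-1, ETS and NF-kappaB factors 0 were called by edgeR, with 1 at an unadjusted p under 0.05, 1 by DESeq2 and 0 by limma-voom. Jun stood at 1136, 696 and 639 CPM in CpG-pretreated and 1055, 1055 and 727 CPM in untreated libraries (log2 fold change -0.2, 95% interval -0.73 to 0.33). Fos stood at 1169, 543 and 432 CPM in CpG-pretreated and 705, 747 and 341 CPM in untreated libraries (0.26, -0.66 to 1.18), with CpG-pretreated library 2 well above the others of its group. Nfkb1 had 0.09 (-0.16 to 0.34). Ets1, the 1 gene at an unadjusted p under 0.05 and named after its values were seen, had -1.06 (edgeR adjusted p = 0.0697, block adjusted p = 0.00142).

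The count of called genes among the 10 depended on which libraries were kept. In edgeR fits it was 0 without CpG-pretreated library 2 or 3, where 0 of all 11602 genes were called (1065 and 1107 at an unadjusted p under 0.05) and 5 and 6 of the 10 had an unadjusted p under 0.05. It was 1, Mmp9, without untreated library 3 or 4, where 2 and 1 of all genes were called. It was 3 without untreated library 2, Mmp12 being lost, where 34 of all genes were called. It was 4 without CpG-pretreated library 4, where 386 of all genes were called, against 113 with all libraries. DESeq2 and limma-voom were not run on these subsets.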

How the data were processed

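The authors deposited raw read counts by Entrez gene ID and a gene length in bases for 3 CpG-pretreated and 3 untreated libraries. The submitters' processing notes name CASAVA, featureCounts and mm10, with no version. Not given in the sources used here were aligner and strand setting. The counts in the 6 sample files equalled those of the series table. Gene symbols and positions are from RefSeq on GRCm38.p6, the assembly behind mm10 (25275 IDs matched, 1904 did not and held 0.327% of counts).

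Testing used edgeR 4.0.16 in R 4.3.3: filterByExpr (minimum count 10, minimum total 15), TMM, robust dispersions and the quasi-likelihood F test, two-sided, with Benjamini-Hochberg adjustment over 11602 genes and a threshold of 0.05. Standard errors were the log2 fold change over the root of F, and 95% intervals came from these and the total degrees of freedom. CPM uses TMM-scaled library sizes, log2 CPM a prior count of 2. Alternatives used DESeq2 1.42.0, limma 3.58.1 (voom), RLE or no scaling, no filter, the library number as a block and leaving out each library. The fit was tested on simulated data.

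The members and lists were chosen with earlier results of these data known. Named were all members, every called gene and the 3 most abundant tested genes of each pathway list, and the 5 genes nearest to each of 3 members. For each number, the 2 libraries' deviations from their group means correlated over genes (0.479 for number 2, 0.25 for 3 and 0.311 for 4). Each exceeds 0.1, so the numbers were taken to mark pairs, on the data alone. Libraries of unlike numbers are not compared here, so the pairing is assumed and not shown. The principal fit is unpaired, and values from the fit with the number as a block are named as such.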

Additional observations from a re-analysis of the deposited data

How the results depend on the processing

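Among the 10 genes' log2 fold changes, those of Mmp14 (-0.34 to 0.05 with 1 library left out) and Mmp25 (-0.12 to 0.45) changed sign when 1 library was left out; the other 8 kept their sign under the alternatives run. Over all genes, 113 were called; the count was 443 by DESeq2 (281 higher, 162 lower, against 55 and 58), 189 without a filter, 41 by limma-voom (14 higher, 27 lower), 988 with the replicate block and 0 to 386 when 1 library was left out. Among the 10 genes 4 were called, 5 by DESeq2, 6 with the block and 0 to 4 when 1 library was left out. With the replicate block, calls were 2 for other ADAM genes, 1 for inhibitors, 5 for shed substrates, 3 for plasminogen genes and 1 for AP-1, ETS and NF-kappaB factors, and the block changed no other count among the 10 pathway lists; it moved several marker lists, as given above. DESeq2 gave 3 shed substrates, 1 matrix gene and 1 factor gene, no filter gave 1 factor gene, and limma-voom gave 0 shed substrates. With 1 library left out the counts ran from 0 to 2 for shed substrates and from 0 to 1 for plasminogen, matrix and factor genes. Without length, 43 of 45 pairs of members kept their order of levels in CpG-pretreated and 39 in untreated cells. Depth limits the low genes: Adamdec1 rests on 22 to 33 counts per CpG-pretreated library. Chosen after seeing the data, leaving Adgre1 out of the macrophage sum moved the log2 difference in ratio to that sum to -0.7 from -1.24 for Mmp12, to -1.72 from -2.26 for Mmp9 and to -0.66 from -1.2 for Adamdec1. The causes were not tested.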
